A study of Mus musculus with 6 samples.

Results

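The interleukin-1 (IL-1) and interleukin-18 (IL-18) receptor family was followed through 10 genes of the 35275 listed for mouse ID8-KMF ovarian cancer cells. The genes are Il18rap, Il18r1, Il1rl1, Il1rl2, Il1r1, Il1rap, Il1rn, Il18, Il33 and Myd88. They were selected on measured values, namely the higher level of Il18rap in the knockout cells, so that its neighbours on chromosome 1, its partner chains, ligands and adaptor could be set beside it. That contrast chose them, so their values are given as a description. How many of them passed the cut used for all genes is stated beside the share of all genes, and nothing is read from it.

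The libraries were 3 from Rgnef-/- cells, called knockout here, and 3 from Rgnef-/- cells that carried a lentivirus with GFP-Rgnef, called GFP-Rgnef here. Rgnef is the product of Arhgef28, a guanine nucleotide exchange factor. All 6 libraries therefore came from cells without endogenous Rgnef, on a C57Bl6/J background, grown subconfluent in 2 dimensions on dishes seeded with Matrigel. ID8-KMF was derived by passaging ID8 cells in mice, and the labels give neither its clonal state nor the promoter of the construct. What the viral vector and the GFP tag did cannot be told apart from what Rgnef did, and the unedited parental line was not analysed here. Nothing in the labels says that the 3 libraries of a group were separate cultures, so p-values measure the spread between libraries, which may be technical.

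IL-1 binds its receptor IL1R1, which then recruits the accessory chain IL1RAP, and the cytoplasmic TIR domains of the pair bind the adaptor MYD88. IL-18 signals in the same way through IL18R1, which binds the cytokine, and IL18RAP, which joins as the accessory chain. The antagonist IL1RN occupies IL1R1 without recruiting the accessory chain. IL1RL1 is the receptor of IL-33 and IL1RL2 that of the IL-36 cytokines, and both use IL1RAP. IL-18 receptors are best known on T cells and natural killer cells, and IL-1 receptors on many epithelial and stromal cells.

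The deposited unit is FPKM, the fragments counted on a gene per kilobase of its length, scaled to the library's depth. Libraries held 15898965 to 17977069 reads as implied by these values, with 10572 to 10756 genes at 1 FPKM or more. Arhgef28 matched the labels, with 0.116, 0.110 and 0.134 FPKM in knockout libraries against 57.24, 50.92 and 50.02 FPKM in GFP-Rgnef libraries. Epithelial and mesothelial markers summed to 1550 to 2480 FPKM in knockout libraries and 1660 to 2460 FPKM in GFP-Rgnef libraries and none of the 10 was at 0 in every library, though Epcam, Krt7 and Lrrn4 had at most 0.339 FPKM in any library. These sums, led by Krt19, held members that differed. Krt18, a keratin, was at 224 ± 9.21 FPKM in knockout libraries and 320 ± 29.8 FPKM in GFP-Rgnef libraries (SD, n = 3 each; limma adjusted p = 0.00625). Upk3b, a mesothelial uroplakin, had 319, 318 and 116 FPKM in knockout libraries against 120, 115 and 42.6 FPKM in GFP-Rgnef libraries and was not called (limma adjusted p = 0.0878). The part of these differences in the results below was not tested. The groups were compared with limma on log2(FPKM + 1) over the 11500 genes with a mean of at least 0.5 FPKM. A gene was called at a Benjamini-Hochberg adjusted p below 0.05, and all differences are knockout minus GFP-Rgnef on that log2 scale. The added 1 compresses the differences of low genes.

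Promoter sequences from RefSeq (GRCm38.p6), 250 bases before to 50 after an annotated start, were available for all 10 genes, as 17 windows. The 4 windows shown hold a match to a kappaB-type palindrome, GGAANTTCC, or to an AP-1 element, TGANTCA, motifs known from NF-kappaB and AP-1 sites of cytokine-induced genes. Each motif reads the same on both strands, the 2 patterns shared no bases here, and all motifs searched were picked after the sequences were seen. Capitals mark the match, and all 4 windows are on the plus strand. They are Il18rap (chr1:40515112-40515411), the second start of Il1rl1 (chr1:40439379-40439678), Il1rl2 (chr1:40324339-40324638) and the first start of Il1rn (chr2:24336610-24336909).
Il18rap: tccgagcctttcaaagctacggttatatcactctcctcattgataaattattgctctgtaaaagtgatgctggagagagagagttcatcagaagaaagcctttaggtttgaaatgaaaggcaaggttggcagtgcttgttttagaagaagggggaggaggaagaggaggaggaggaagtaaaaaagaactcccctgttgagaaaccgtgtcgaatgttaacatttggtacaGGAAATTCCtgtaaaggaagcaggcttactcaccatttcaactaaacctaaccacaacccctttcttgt
Il1rl1, second start: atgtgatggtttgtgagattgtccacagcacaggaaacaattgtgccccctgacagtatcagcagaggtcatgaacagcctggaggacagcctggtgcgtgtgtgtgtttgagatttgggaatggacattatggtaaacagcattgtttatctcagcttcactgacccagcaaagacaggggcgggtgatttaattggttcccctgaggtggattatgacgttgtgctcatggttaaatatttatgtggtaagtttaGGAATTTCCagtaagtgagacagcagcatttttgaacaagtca
Il1rl2: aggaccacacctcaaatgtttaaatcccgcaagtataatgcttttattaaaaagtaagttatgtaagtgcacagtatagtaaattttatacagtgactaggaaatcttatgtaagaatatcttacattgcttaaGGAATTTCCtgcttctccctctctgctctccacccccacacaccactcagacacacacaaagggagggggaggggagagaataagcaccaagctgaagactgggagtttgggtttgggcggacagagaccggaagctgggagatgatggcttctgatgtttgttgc
Il1rn, first start: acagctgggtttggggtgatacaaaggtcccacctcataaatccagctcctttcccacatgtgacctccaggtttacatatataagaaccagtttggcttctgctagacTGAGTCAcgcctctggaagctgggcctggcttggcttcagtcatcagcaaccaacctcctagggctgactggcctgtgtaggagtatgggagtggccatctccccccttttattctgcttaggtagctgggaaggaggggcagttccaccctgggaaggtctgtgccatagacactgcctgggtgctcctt
The palindrome began at position -19 in Il18rap, at -116 in Il1rl2 and at 8 in Il1rl1, counted from the start as position 1 with no position 0. It occurred in 302 of 32544 windows of the same length (0.928%). The AP-1 element began at -141 in Il1rn and occurred in 2535 of 32544 windows (7.79%). Of 2 further motifs searched on both strands, GAGGAAGT, an ETS-type element, began at -79 in Il18rap and occurred in 3.11% of windows. TGACNNNGC, the core of the antioxidant response element, began at -88 in the second start of Il1rl1 and occurred in 12.4% of windows. A match is a description of the letters and not a binding site. FPKM is given per gene, so which start was used in these cells was not analysed here.

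Il18rap, the accessory chain of the IL-18 receptor, stood apart from the other receptors. It had 10.6, 12.9 and 10.7 FPKM in knockout libraries against 2.20, 2.33 and 2.19 FPKM in GFP-Rgnef libraries. Every knockout library was above every GFP-Rgnef library, and the values within a group lay close together. These values correspond to 447, 529 and 420 reads in knockout libraries and 88, 87 and 89 reads in GFP-Rgnef libraries. Mean levels were 11.4 ± 1.33 FPKM in knockout libraries and 2.24 ± 0.0763 FPKM in GFP-Rgnef libraries (SD, n = 3 each), a ratio of 5.09. The log2 difference of 1.93 (SE 0.103) was the 14th highest of 11500. Il18rap (ENSMUSG00000026068) spans 40515362 to 40551705 on the plus strand of chromosome 1 (GRCm38).

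Il18r1, the chain that binds IL-18, was near 0 in both groups. It had 0.0375, 0.0194 and 0.0604 FPKM in knockout libraries, and 0.0198, 0 and 0 FPKM in GFP-Rgnef libraries. The groups did not separate: 1 GFP-Rgnef library was above 1 knockout library. Over all libraries of a group this was 6 reads in knockout libraries (exact Poisson 95% interval 2.2 to 13.1) and 1 read in GFP-Rgnef libraries (0.0253 to 5.57). Intervals and floors cover counting error only. The accessory chain Il18rap thus had at least 420 reads in each knockout library and 87 to 89 in each GFP-Rgnef library, where its partner had at most 3.

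Il1rl1, the IL-33 receptor, was similarly low, with 0.0762, 0.0590 and 0.0409 FPKM in knockout libraries against 0.0604, 0.0215 and 0.0991 FPKM in GFP-Rgnef libraries. Its 9 reads in knockout libraries equalled the 9 reads in GFP-Rgnef libraries, and the groups overlapped. Il1rl2, the IL-36 receptor, was at 0 in all 6 libraries. At its full annotated exon length of 6812 bases, 3 reads would have been 0.0245 to 0.0277 FPKM. A shorter length would raise this floor, and the length that fitted the Il1rl1 values was 2910 of 6894 bases.

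Il1r1, the signalling receptor of IL-1, had 2.14, 1.74 and 4.08 FPKM in knockout libraries against 0.897, 1.34 and 1.92 FPKM in GFP-Rgnef libraries. The library numbered 3 was the highest in each group, and GFP-Rgnef library 3 was above knockout library 2. Means were 2.65 ± 1.25 FPKM in knockout libraries and 1.39 ± 0.515 FPKM in GFP-Rgnef libraries (SD, n = 3 each). The log2 difference was 0.58 (SE 0.248), and 0.477 without the libraries numbered 3. With 1 library left out it ran from 0.320 without knockout library 3 to 0.765 without knockout library 2.

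Il1rap, the accessory chain shared by the IL-1, IL-33 and IL-36 receptors, lies on chromosome 16 (26581704 to 26730117, plus strand). It had 2.75, 2.91 and 2.49 FPKM in knockout libraries against 1.93, 1.65 and 1.90 FPKM in GFP-Rgnef libraries, and the groups did not overlap. Means were 2.72 ± 0.209 FPKM in knockout libraries and 1.83 ± 0.158 FPKM in GFP-Rgnef libraries (SD, n = 3 each), a ratio of 1.49. The log2 difference was 0.39 (SE 0.108), and 0.347 to 0.439 with a library left out. The FPKM ratio of Il18rap to Il1rap was 3.84, 4.45 and 4.29 in knockout libraries against 1.14, 1.42 and 1.15 in GFP-Rgnef libraries. This ratio reuses the Il18rap values that chose the genes, so it is a description and nothing is read from it.

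**Figure D1:**
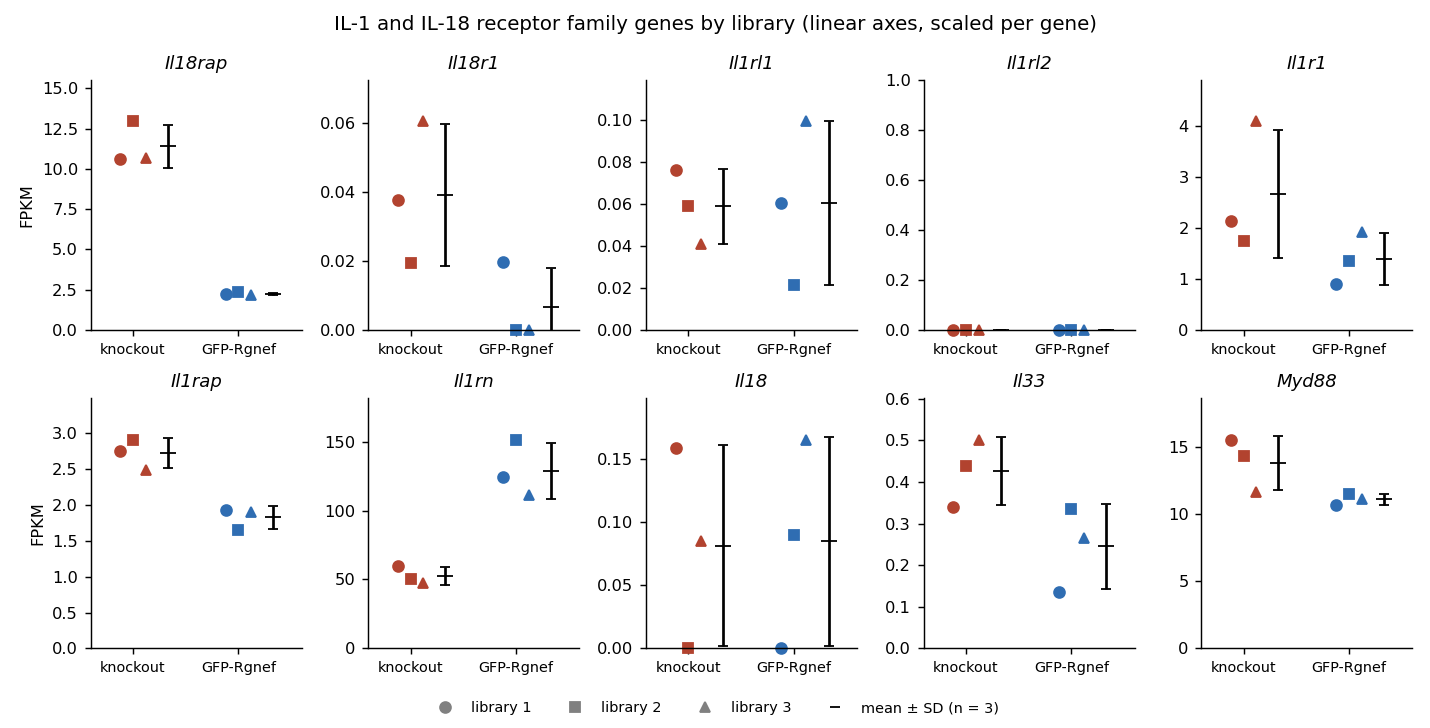
FPKM of each of the 10 genes in every library, on linear axes scaled per gene, with mean ± SD (n = 3) beside the points. Il18rap sits at 10.6 to 12.9 FPKM in knockout libraries and near 2.2 FPKM in GFP-Rgnef libraries, Il1rn is lower in every knockout library, and Il1rl2 is at 0.

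Il1rn, the receptor antagonist, was the most abundant of the 10 genes in every library and the only one of the tested 5 that was lower in knockout libraries. It had 59.9, 50.1 and 47.6 FPKM in knockout libraries against 124, 151 and 111 FPKM in GFP-Rgnef libraries. Every knockout library was below every GFP-Rgnef library. Mean levels were 52.5 ± 6.50 FPKM in knockout libraries and 129 ± 20.5 FPKM in GFP-Rgnef libraries (SD, n = 3 each). The log2 difference was -1.27 (SE 0.126), the 31st lowest of 11500. Relative to Il1r1, the receptor it blocks, its FPKM ratio was 28.0, 28.8 and 11.7 in knockout libraries against 138, 113 and 57.7 in GFP-Rgnef libraries. That ratio did not overlap between the groups, and it was lowest in library 3 of each. It reuses values of the contrast that chose the genes, so it is a description and nothing is read from it. Il1rn (ENSMUSG00000026981) spans 24336853 to 24351494 on the plus strand of chromosome 2.

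The ligands were scarce. Il18 had 0.159, 0 and 0.0851 FPKM in knockout libraries against 0, 0.0896 and 0.165 FPKM in GFP-Rgnef libraries, or 3 reads in each group (exact Poisson 95% interval 0.619 to 8.77). Il33, an alarmin stored in the nucleus, had 0.339, 0.438 and 0.501 FPKM in knockout libraries against 0.135, 0.336 and 0.265 FPKM in GFP-Rgnef libraries. The lowest knockout library barely exceeded the highest GFP-Rgnef library, at 29 reads over the knockout libraries (19.4 to 41.6) and 16 over the GFP-Rgnef libraries (9.15 to 26.0). Il33 was under the filter and had no fitted difference. The read numbers of Il18 came from an annotated transcript length. For the other members above 0, with few reads or many, they are the smallest whole numbers that fit the values.

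Myd88, the adaptor, had 15.5, 14.3 and 11.6 FPKM in knockout libraries against 10.7, 11.5 and 11.2 FPKM in GFP-Rgnef libraries. The groups did not overlap, and knockout library 3 lay just above GFP-Rgnef library 2. Means were 13.8 ± 2.00 FPKM in knockout libraries and 11.1 ± 0.415 FPKM in GFP-Rgnef libraries (SD, n = 3 each), a log2 difference of 0.28 (SE 0.109). It was 0.394 without knockout library 3 and 0.398 without both libraries numbered 3. The 639 tested genes of chromosome 9, where Myd88 lies, had a median difference of 0.284, against -0.0158 over all genes, and with each chromosome centred on its median Myd88 was at -0.0085. Myd88 exons share 290 bases with Acaa1a on the opposite strand, which had 37.3, 34.1 and 35.1 FPKM in knockout libraries against 35.9, 39.3 and 37.6 FPKM in GFP-Rgnef libraries. The handling of strand is not given in the sources used here, so reads of the pair cannot be told apart.

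Of the 10 genes, 5 passed the filter on low values, and 2 of them were past the cut as higher (Il18rap and Il1rap) and 1 as lower (Il1rn). Il1rap was not past it when any of the 6 libraries was left out. Over all 11500 genes 13.4% were called, 8.04% higher and 5.34% lower, and since the contrast chose the genes nothing is read from their count. Groups did not overlap for 3 higher and 1 lower of the 5, where 33.4% of all genes did not overlap, 16.7% in each direction. The median difference of the 5 was 0.39, against -0.0158 over all genes.

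The 5 receptor genes of the family on chromosome 1 and the decoy receptor Il1r2 lie in a row on the plus strand over 478 kb, in the order Il1r2, Il1r1, Il1rl2, Il1rl1, Il18r1, Il18rap. Il18r1 starts 136 bases after the end of Il1rl1, and Il18rap starts 14.5 kb after the end of Il18r1. Along this row the levels were uneven. Il1r1 and Il18rap, near opposite ends, were the only ones with a mean of at least 0.5 FPKM, and the genes between them had at most 0.0991 FPKM in any library. Il1r2 was detected in 1 library, knockout library 3, at 0.0893 FPKM.

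Within 1 Mb of Il18rap there were 11 other protein-coding genes, of which 4 were at 0 in every library and 3 passed the filter. None of the 3 was called (limma), none had an unadjusted p below 0.05, and voom called 0 as well. Their starts lay at -980 kb (Cnot11), -964 kb (Rnf149) and -614 kb (Map4k4) from the Il18rap start. Other than members, no protein-coding gene nearer than Map4k4 passed the filter, so the genes closest to Il18rap were not tested. Cnot11, a subunit of the CCR4-NOT deadenylase complex, had 16.4, 15.4 and 17.2 FPKM in knockout libraries against 18.2, 18.1 and 19.3 FPKM in GFP-Rgnef libraries. Its difference was -0.17 (SE 0.0759, limma adjusted p = 0.178). Rnf149, a RING-type ubiquitin ligase, was at -0.10 (SE 0.131, limma adjusted p = 0.695). Map4k4, a kinase upstream of JNK, was at 0.06 (SE 0.0893, limma adjusted p = 0.738), with 111 to 116 FPKM in knockout libraries and 95.0 to 120 FPKM in GFP-Rgnef libraries. Downstream of Il18rap, Slc9a4 was at 0, and Slc9a2, a sodium-proton exchanger chosen after its values were seen, was under the filter. Slc9a2, which starts 165 kb after the Il18rap start, had 0.446, 0.362 and 1.06 FPKM in knockout libraries. It had 0.0673, 0.0720 and 0.381 FPKM in GFP-Rgnef libraries, and the groups overlapped. Mfsd9, at 257 kb, was also under the filter and chosen after its values were seen. It had 0.504 to 0.620 FPKM in knockout libraries and 0.318 to 0.575 FPKM in GFP-Rgnef libraries, and its groups overlapped too. The 656 tested genes of chromosome 1 had a median difference of -0.024, with 36 called higher and 32 lower.

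**Figure D2:**
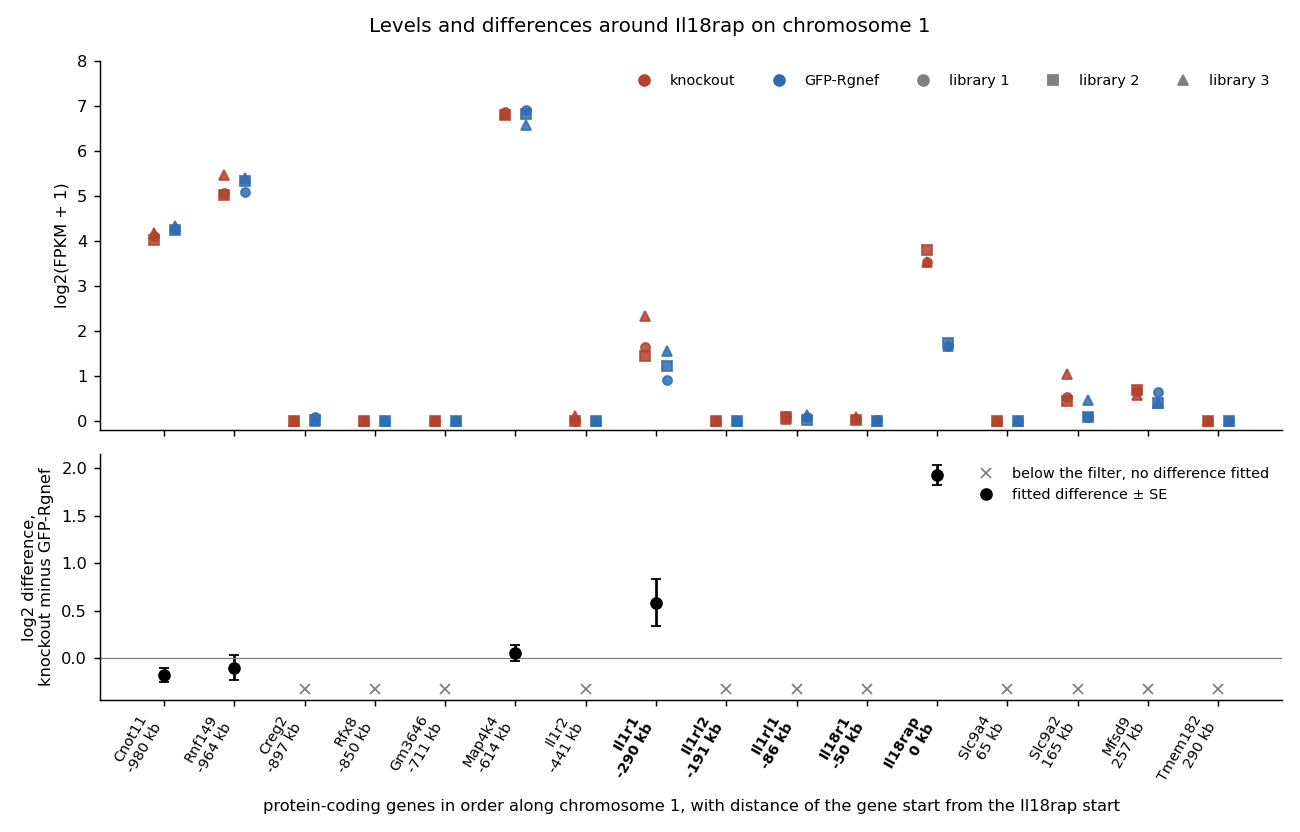
Protein-coding genes within 1 Mb of Il18rap in order along chromosome 1, with family members in bold: log2(FPKM + 1) in every library above, and the fitted difference ± SE below, where crosses mark genes under the filter. Il18rap (1.93) and Il1r1 (0.58) are the 2 largest of the 5 differences fitted there, and the 3 other genes lie between -0.17 and 0.06.

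The differences of the 5 tested genes were recomputed under 15 alternative settings. Il18rap lay at 1.84 to 2.34 and Il1rn at -1.37 to -1.15 over these settings, which reuse the values that chose the genes.

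**Figure D3:**
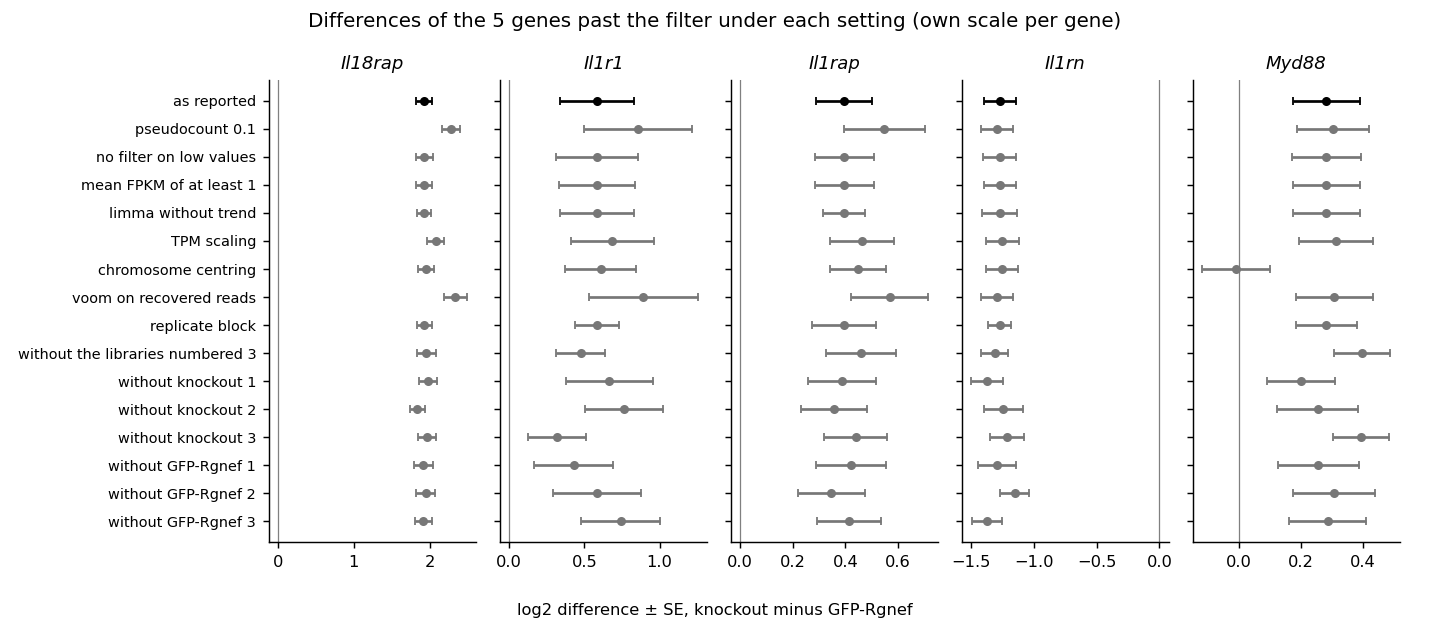
Log2 difference ± SE, knockout minus GFP-Rgnef, of the 5 genes past the filter, as reported and under each alternative, with an axis per gene and a grey line at 0. Il18rap lies at 1.84 to 2.34 and Il1rn at -1.37 to -1.15, and Myd88 is at -0.0085 when each chromosome is centred on its median.

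Other ligands, decoys and binding proteins of the family were nearly silent. Of 12 such genes, 4 were at 0 in every library and 1 passed the filter. Il18bp, the secreted protein that captures IL-18, had 1.71, 1.56 and 1.62 FPKM in knockout libraries against 1.89, 1.62 and 1.41 FPKM in GFP-Rgnef libraries. The groups overlapped, at a difference of -0.00063 (SE 0.117, limma adjusted p = 0.998), and its exons share bases with Numa1 on the opposite strand. The next most abundant, Il1rapl1, a receptor-like protein of neurons, was at 0.177 FPKM or less in every library. Il1a, which encodes IL-1 alpha, was at 0.121 FPKM or less. The gene lists here were written with earlier results of these data known.

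Genes that mature IL-1 family cytokines gave no call in 9 tested of 21, with 4 at an unadjusted p below 0.05. Voom called 1 gene of the list higher, which is not identified here. Nek7, an activator of the NLRP3 inflammasome, had 68.2, 77.9 and 78.0 FPKM in knockout libraries against 62.0, 59.9 and 69.7 FPKM in GFP-Rgnef libraries (difference 0.22, limma adjusted p = 0.125). The groups overlapped for Nek7. Without the libraries numbered 3, 1 gene of the list was called higher and 2 lower.

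Signalling proteins downstream of MYD88 were measured well, with 34 of 37 past the filter. Of these 1 was called higher and 4 lower, in total a share near the 13.4% of all genes called. Over all genes 8.04% were called higher and 5.34% lower, and nothing is read from counts this small. The median difference was -0.0567, against -0.0158 over all genes. Tollip, which restrains IRAK1, rose to 70.7 ± 0.669 FPKM in knockout libraries, against 52.9 ± 2.32 FPKM in GFP-Rgnef libraries (difference 0.41, limma adjusted p = 0.00529). It lies on chromosome 7, whose median difference was 0.245, and centred on that it was at 0.161 and not called. Mapk9, the JNK2 kinase, fell to 21.7 ± 0.780 FPKM in knockout libraries, against 30.7 ± 3.11 FPKM in GFP-Rgnef libraries (difference -0.47, limma adjusted p = 0.0106).

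The other 3 that fell were near the threshold or shared exons with an abundant gene. Ikbkg, the NEMO subunit of the IkappaB kinase, was at 16.5 ± 0.930 FPKM in knockout libraries and 24.9 ± 3.98 FPKM in GFP-Rgnef libraries (limma adjusted p = 0.0163). It shares exon bases with G6pdx on the opposite strand, and was not called without knockout library 2, at -0.514. Irak3, an inhibitory member of the IRAK family, was at 2.44 ± 0.295 FPKM in knockout libraries and 3.72 ± 0.223 FPKM in GFP-Rgnef libraries (limma adjusted p = 0.0285). It shares exon bases with Tmbim4 on the opposite strand, and lost its call when any library but knockout 1 was left out, at -0.498 to -0.394. Zc3h12a, the RNase Regnase-1 that degrades cytokine transcripts, was at 2.79 ± 0.613 FPKM in knockout libraries and 4.53 ± 0.590 FPKM in GFP-Rgnef libraries (limma adjusted p = 0.0425). Its call was lost when any library but knockout 3 was left out, at -0.616 to -0.413. All SDs are over n = 3 libraries.

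Of the genes that IL-1 induces in epithelial and stromal cells, 25 of 38 were tested, and 9 were called lower, 3 higher and 13 neither. Over all genes 5.34% were called lower and 8.04% higher. Those called higher were 925 genes, of which 236 lay on chromosome 7 and 234 on chromosome 9. These chromosomes held 819 and 639 of the 11500 genes tested. The list had a median difference of -0.341, against -0.0158 over all genes. The number called lower was 3 to 10 when a library was left out, with 3 both without knockout library 2 and without GFP-Rgnef library 2. Nfkbia, the NF-kappaB inhibitor IkappaB alpha, fell to 22.6 ± 1.83 FPKM in knockout libraries, against 33.7 ± 0.668 FPKM in GFP-Rgnef libraries (limma adjusted p = 0.00437). Ier3, an immediate early gene, fell to 92.5 ± 5.25 FPKM in knockout libraries, against 147 ± 12.3 FPKM in GFP-Rgnef libraries (limma adjusted p = 0.00243). Cx3cl1, the chemokine fractalkine, fell to 3.85 ± 0.640 FPKM in knockout libraries, against 9.16 ± 1.63 FPKM in GFP-Rgnef libraries (limma adjusted p = 0.00404). The differences were -0.56 for Nfkbia, -0.66 for Ier3 and -1.06 for Cx3cl1.

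The remaining 6 called lower were Cxcl1, Ccl20, Tnfaip2, Tnfaip3, Tnip1 and Nfkbiz, named here after their values were seen. Ccl20 passed the filter only through the GFP-Rgnef libraries, with a mean of 0.271 FPKM in knockout libraries and 0.864 FPKM in GFP-Rgnef libraries, and was under it without GFP-Rgnef library 2. Nfkbiz lost its call when any library was left out, and Tnfaip2 when any but knockout 3 was. Tnfaip3 lost it when any but knockout 3 was left out, and Tnip1 when any but knockout 1 or GFP-Rgnef 3 was. Ccl20 lost it without knockout 1, knockout 2 or GFP-Rgnef 1. Tnfaip3 (A20) and Tnip1 restrain NF-kappaB, as Nfkbia does. Cxcl1, a neutrophil chemokine, had 21.1, 18.2 and 41.9 FPKM in knockout libraries against 45.4, 69.2 and 84.4 FPKM in GFP-Rgnef libraries (difference -1.31, limma adjusted p = 0.0300). Its groups did not overlap, library 3 was the highest in each, and it was not called without knockout library 1 or 2 or without GFP-Rgnef library 2 or 3, at -1.26 to -1.08.

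The 3 that rose encode a growth factor and adhesion molecules. Csf1, the macrophage colony-stimulating factor, rose to 121 ± 10.1 FPKM in knockout libraries, against 71.0 ± 6.18 FPKM in GFP-Rgnef libraries (difference 0.76, limma adjusted p = 0.00221). Icam1, an adhesion receptor for leukocyte integrins, rose to 5.26 ± 0.310 FPKM in knockout libraries, against 2.37 ± 0.460 FPKM in GFP-Rgnef libraries (difference 0.90, limma adjusted p = 0.00419). It lies on chromosome 9 and stayed called with the chromosomes centred. Vcam1, another adhesion molecule, rose to 1.93 ± 0.419 FPKM in knockout libraries, against 0.798 ± 0.207 FPKM in GFP-Rgnef libraries (difference 0.70, limma adjusted p = 0.0198). It was not called without knockout library 1 or without GFP-Rgnef library 1, at 0.709 and 0.654.

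Toll-like receptors, many of which signal through MYD88, were listed with adaptors and co-receptors. This list gave no call in 5 tested of 16, none at an unadjusted p below 0.05 and none by voom. Tlr2 and Tlr4 were the only Toll-like receptors among those tested. Tlr4, the lipopolysaccharide receptor, was abundant at 42.6, 40.3 and 49.7 FPKM in knockout libraries against 33.5, 38.9 and 58.2 FPKM in GFP-Rgnef libraries (limma adjusted p = 0.886). Ly96, its co-receptor MD-2, had 3.67, 5.49 and 7.05 FPKM in knockout libraries against 3.57, 4.48 and 8.84 FPKM in GFP-Rgnef libraries (limma adjusted p = 0.994).

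**Figure D4:**
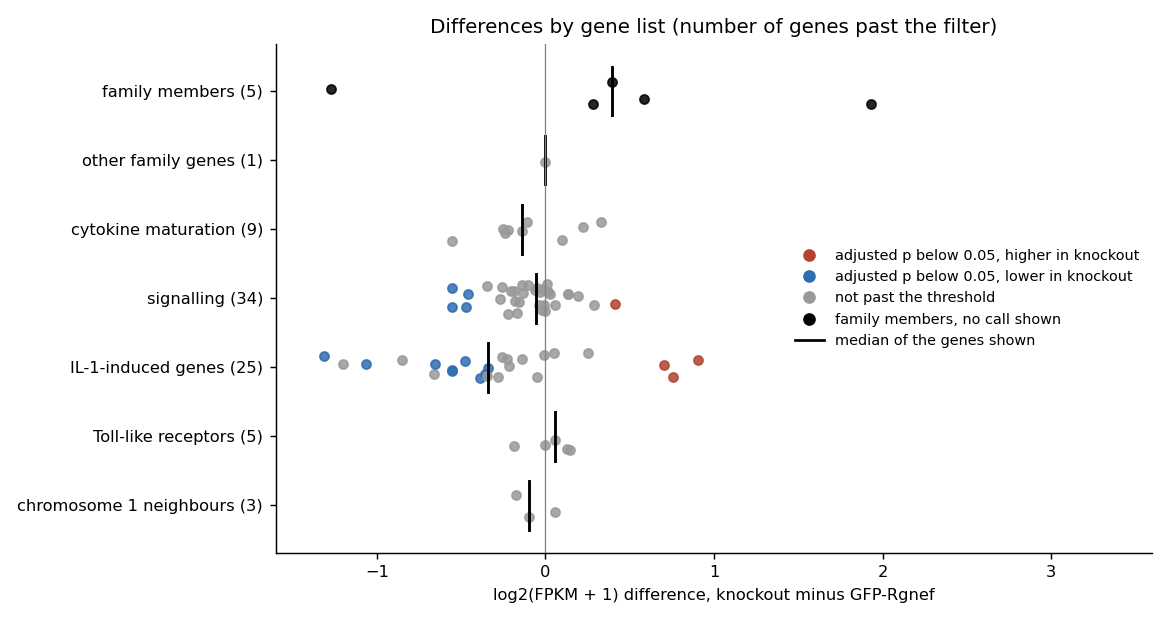
Fitted log2 difference, knockout minus GFP-Rgnef, of every gene past the filter in each list, with the number of genes in brackets, the median as a black line, called genes of the lists coloured, and family members in black without a call. Il18rap (1.93) is the highest point and Cxcl1 (-1.31), with Il1rn (-1.27) close by, the lowest.

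Since IL-18 receptors mark lymphocytes, markers of other cells were listed beside Il18rap. Of 10 lymphocyte markers 7 were at 0 in every library, Cd3e among them, and Ptprc (CD45) was at 0.0179 FPKM in 1 GFP-Rgnef library and 0 elsewhere. The lymphocyte sum was 4.86 to 9.46 FPKM in knockout libraries and 2.84 to 3.35 FPKM in GFP-Rgnef libraries, nearly all of it Gata3, a transcription factor also made outside lymphocytes. Gata3 had 4.86, 5.53 and 9.46 FPKM in knockout libraries against 2.89, 2.82 and 3.35 FPKM in GFP-Rgnef libraries, and was called higher (limma adjusted p = 0.0267). Its part in the Il18rap values was not tested. Of 8 myeloid markers 3 were at 0 everywhere. The myeloid sum was 2.54 to 4.03 FPKM in knockout libraries and 2.22 to 3.49 FPKM in GFP-Rgnef libraries, most of it Cd68 in every library. Of 6 mast cell and basophil markers 3 were at 0, with sums of 0 to 0.407 FPKM in knockout libraries and 0.178 to 0.306 FPKM in GFP-Rgnef libraries. Of 5 endothelial markers 1 was at 0, and the sum of 85.9 to 146 FPKM in knockout libraries and 95.7 to 108 FPKM in GFP-Rgnef libraries was nearly all Tek. In bulk RNA fewer cells of a type and less RNA per cell cannot be told apart.

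The 5 protein-coding genes whose log2(FPKM + 1) tracked Il18rap most closely over the 6 libraries were Arcn1, Stt3b, Zfp707, Cavin2 and Usp47, with Pearson r of 0.9996 to 0.997. The 6 points fall into their 2 groups, and 56 of 10699 genes reached r of 0.99, so the values are a description. Cavin2, a caveolar coat protein, lies on chromosome 1 at 51289126 to 51302960 and had 7.39, 7.71 and 6.88 FPKM in knockout libraries against 2.56, 2.51 and 2.33 FPKM in GFP-Rgnef libraries. Zfp707 differed least, with 8.23 to 8.36 FPKM in knockout libraries and 7.44 to 7.45 FPKM in GFP-Rgnef libraries. Arcn1, a coatomer subunit on chromosome 9, had 128 to 135 FPKM in knockout libraries and 95.6 to 96.8 FPKM in GFP-Rgnef libraries. Stt3b, a catalytic subunit of oligosaccharyltransferase on the same chromosome, had 78.5 to 82.8 FPKM in knockout libraries and 58.3 to 58.4 FPKM in GFP-Rgnef libraries. Usp47, a deubiquitinase on chromosome 7, had 39.7 to 42.2 FPKM in knockout libraries and 29.50 to 29.98 FPKM in GFP-Rgnef libraries.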

How the data were processed

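Poly-T selected RNA of 6 ID8-KMF libraries was made with a NEBNext Ultra kit and sequenced on an Illumina HiSeq instrument, per the labels. The values are FPKM in 1 table deposited by the authors, and groups and numbers came from the labels. The submitters' processing notes name CASAVA 1.8, TopHat2 2.0.9, DESeq2 and mm10. The annotation, the role of each tool and the strand setting are not given in the sources used here. GENCODE M 21 (GRCm38) gave symbols and coordinates and matched 34490 of 35275 identifiers. Whole reads were recovered within 0.02 for all but 1 of the 19655 genes above 0, from the annotated exon length for 4228, a transcript length for 1319 and the smallest whole length for 14107, and summed to 99.99% to 100.06% of the implied depth.

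The test was limma 3.58.1 with trend (R 4.3.3) on log2(FPKM + 1), mean FPKM of at least 0.5, adjusted over 11500 genes. Reads recovered in this way were tested with voom as an alternative. Other alternatives were the pseudocount, the filter, the scaling, the trend, chromosome centring, the replicate number as a block, and left-out libraries. Tables and plots used Python 3.11.15. The members and lists were chosen with earlier results of these data known. Named genes were all members, the tested chromosome 1 neighbours within 1 Mb, Arhgef28, the 5 genes most like Il18rap, and from each list the called genes, at most 6 by smallest p, with the most abundant added where fewer than 2 were called. Il1a, Il1r2, Slc9a2, Mfsd9, Tlr2, Ly96, Acaa1a, Cxcl1, the other 5 IL-1-induced genes beyond that number and the markers named were chosen after their values were seen. Ly96 was named although an adaptor of its list was slightly more abundant over all libraries. A gene that the rule would name is counted in its list but not reported here. The fit was also run on simulated counts of independent libraries, with 1 dispersion (0.01) for all genes. Those counts held no shared deviation of libraries and no shifted chromosome, so nothing is read from them for these data. All columns of the table were used.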

Additional observations from a re-analysis of the deposited data

How the results depend on the processing

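The contrast that chose the members was recomputed in each of 15 alternatives, so their values are a description. Il18rap lay at 1.84 to 2.34, Il1rn at -1.37 to -1.15, Il1r1 at 0.320 to 0.891 and Il1rap at 0.347 to 0.568. The members past the cut as higher numbered 1 with a pseudocount of 0.1, with no filter and with a mean FPKM of at least 1, and 1 to 2 with a library left out. They numbered 3 with the replicate block, where Il1r1 was added, and 3 without the libraries numbered 3, where Myd88 was added. Myd88 was also past the cut without knockout library 3. Myd88 reversed to -0.00847 with chromosome centring, whose construction subtracts the chromosome 9 median.

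Over all genes, 494 were called higher and 388 lower with chromosome centring, and 394 lower with no filter. Without the libraries numbered 3, 1059 were called lower. With a library left out there were 458 to 848 higher and 198 to 580 lower, fewest without GFP-Rgnef library 2. Of the signalling list, calls higher were 2 with no filter, 3 with TPM scaling, 0 with chromosome centring, 2 without the libraries numbered 3 and 1 to 2 with a library left out, and calls lower were 2 with no filter and 1 to 3 with a library left out. Of the maturation list, 1 gene was called higher with no filter, without trend, with voom and without the libraries numbered 3, and 2 lower without those, against 0 to 1 lower with a library left out. Of the IL-1-induced genes, 4 were called lower with no filter, 15 without the libraries numbered 3 and 3 to 10 with a library left out, with 2 to 3 called higher. The cause was not tested.

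Libraries with the same number deviated together for number 3, less so for number 1 and not for number 2. The labels do not say what a number marks. Same-numbered libraries deviated together with a correlation of 0.321 for number 1, -0.0199 for number 2 and 0.552 for number 3, and GFP-Rgnef 2 correlated best with knockout 1 (0.399). With the replicate block, 1517 genes were called higher and 1253 lower and Il1r1 was past the cut, with 2 higher and 8 lower of the signalling list, 1 higher and 2 lower of the maturation list, and 15 lower of the IL-1-induced genes.

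Depth limits Il18r1, Il1rl1, Il1rl2, Il18 and Il33, which had at most 11 reads in any library.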
